A study of Mus musculus with 19 samples.

Results

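Bone morphogenetic protein (BMP) signalling was followed through 10 genes in ovaries of mice lacking Dhh, Ihh or both, the genes of the hedgehog ligands Desert hedgehog and Indian hedgehog. The 10 genes are the ligands Bmp2, Bmp4 and Bmp7, the receptors Acvr1, Bmpr1a, Bmpr1b and Bmpr2, and the target genes Id1, Id2 and Id3. They were found as the probe sets annotated to one of these symbols alone, which gave 25 probe sets of the 34945 annotated to a single gene, and 10 of the 12381 genes tested. Of the 25 probe sets, 22 passed the filter on low signals (a mean near 69.3 or above) and 3 did not (1 each of Bmp7, Bmpr1a and Id2), and every one of the 10 genes kept at least 1. The set was chosen by a rule that had already seen Acvr1 lower in the ovaries lacking Ihh and in those lacking both genes. Acvr1 is therefore described there without a test, and tested only in the ovaries lacking Dhh.

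BMPs are secreted ligands that bring together type I receptors (Acvr1, Bmpr1a, Bmpr1b) and type II receptors (such as Bmpr2) on the cell surface. The type I receptor phosphorylates SMAD proteins, which enter the nucleus with Smad4 and act on target genes, among them the Id genes, whose proteins bind basic helix-loop-helix factors and keep them off DNA. In the ovary, BMPs are made by theca cells, granulosa cells and oocytes, and Dhh and Ihh made by granulosa cells signal to the theca.

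Total RNA of whole ovaries from mice aged 2 months was amplified and measured on 19 Affymetrix arrays, as MAS5 signals on a linear scale with every array set to a trimmed mean of 500. The groups were Ihh_Dhh_dKO (dKO, 3 arrays), Ihh_KO (4 arrays), Dhh_KO (4 arrays) and the controls Ihh_Dhh_dhet (8 arrays), whose name reads as heterozygous for both genes, so the controls were not wild type. The labels give the deletion as specific to the ovary and do not name the Cre driver. The arrays fell into 2 hybridization sets, which the labels do not name. The 3′/5′ ratio of the spiked BioC control was 0.987 to 1.06 on the dKO arrays and controls 1 to 4, and 0.685 to 0.781 on the Ihh_KO arrays, the Dhh_KO arrays and controls 5 to 8. Each mutant group was compared with the 4 controls of its own set, so Ihh_KO and Dhh_KO share controls 5 to 8. Controls with matching places in both sets (1 and 5, 2 and 6, 3 and 7, 4 and 8) deviated together, with correlations of 0.537 to 0.770 against -0.635 to 0.163 for other pairs. Whether such pairs share an ovary or its RNA is not stated, and the p-values, from a limma fit across all genes with Benjamini-Hochberg adjustment and a threshold of 0.05, measure the spread between these arrays only.

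The targeted genes were read first. The Dhh signal was 3.85 to 14.2 on the dKO arrays, 527 to 709 on Ihh_KO 1 to 3, 5.14 to 25.4 on the Dhh_KO arrays and 606 to 1371 on the 8 control arrays. The array labelled Ihh_KO 4 had a Dhh signal of 2.96 and an Ihh signal of 108, against 12.5 to 43.5 for Ihh on Ihh_KO 1 to 3 and 108 to 168 on the Dhh_KO arrays. Ihh was 36.3 to 52.7 on the dKO arrays. On controls 1 to 4 it was 139 to 425, and on controls 5 to 8 it was 160 to 238. The Ihh signal of the array labelled Ihh_KO 4 thus lay below every control and at the lower end of Dhh_KO. The Dhh signal of that array went against its label. Ihh_KO below therefore means arrays 1 to 3, and values of the array labelled Ihh_KO 4 are given apart.

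The promoters of Acvr1, Id2 and Id3 are shown because Acvr1 is the member that differed between groups and the Id genes are the pathway's readout here. RefSeq (GRCm38.p6) windows of 250 bases before a transcript start were available for 7 of the 10 genes: Acvr1, Bmp4, Bmpr1a, Bmpr1b, Bmpr2, Id2 and Id3. The windows of Acvr1, Id2 and Id3 end where the annotated gene begins, while the Bmpr1a window and the 3 Bmpr1b windows lie inside their genes, before internal transcript starts. Both strands were searched for GACCACCCA (bound by GLI, the transcription factors of hedgehog signalling), GGCGCC (an element bound by SMADs of the BMP branch) and GTCTG (the SMAD box). The letters of the motifs do not overlap one another, and matches are in capitals (CAGAC is GTCTG on the other strand). The windows are chr2:58566829-58567078 (minus strand) for Acvr1, chr12:25096093-25096342 (minus strand) for Id2 and chr4:136143572-136143821 (plus strand) for Id3.
Acvr1: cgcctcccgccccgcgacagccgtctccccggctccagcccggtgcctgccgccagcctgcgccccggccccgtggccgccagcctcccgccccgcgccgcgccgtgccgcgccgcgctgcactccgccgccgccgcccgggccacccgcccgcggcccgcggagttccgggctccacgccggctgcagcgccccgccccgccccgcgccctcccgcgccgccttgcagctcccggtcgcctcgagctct
Id2: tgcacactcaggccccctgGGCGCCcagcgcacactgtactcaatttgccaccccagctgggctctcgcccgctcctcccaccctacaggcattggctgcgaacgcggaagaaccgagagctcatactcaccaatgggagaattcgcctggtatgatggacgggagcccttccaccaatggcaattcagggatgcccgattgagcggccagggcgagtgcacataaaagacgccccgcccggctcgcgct
Id3: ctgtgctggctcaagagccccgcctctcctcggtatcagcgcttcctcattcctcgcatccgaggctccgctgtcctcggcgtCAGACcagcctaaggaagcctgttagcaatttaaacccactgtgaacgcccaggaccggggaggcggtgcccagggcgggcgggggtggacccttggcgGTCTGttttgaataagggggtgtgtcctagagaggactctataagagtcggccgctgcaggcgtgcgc
The Acvr1 window, 85.6% G and C, held none of the 3 motifs, the Id2 window held 1 GGCGCC starting at base -231, and the Id3 window held 2 SMAD boxes starting at bases -167 and -68. Bases are counted back from the transcript start. Of all 32851 windows, 0.225% held GACCACCCA, 9.59% held GGCGCC and 42.2% held GTCTG. No window of the 7 genes held GACCACCCA, which says only that these letters are not in these windows.

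Among the receptors, Acvr1 was lower in dKO and in Ihh_KO ovaries and not in Dhh_KO ovaries. Acvr1 (also called ALK2) is a type I receptor for BMP6 and BMP7 and also serves anti-Müllerian hormone, together with Amhr2. On the probe set 1416786_at, used to stand for the gene, the signal was 554, 612 and 478 on the dKO arrays and 1064, 948, 1102 and 1034 on controls 1 to 4. All 3 dKO arrays lay below all 4 controls, and the dKO mean of 548 ± 66.9 compared with 1037 ± 65.8 in the controls (SD, n = 3 and 4). The log2 change was -0.92 (SE 0.11), a ratio of 0.530.

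In Ihh_KO ovaries the Acvr1 signal was 852, 818 and 733, against 1227, 1343, 1499 and 1495 on controls 5 to 8. The groups again did not overlap, and the log2 change was -0.79 (SE 0.11), a ratio of 0.579. The array labelled Ihh_KO 4 read 1487, inside the range of the controls, and with it in the group the log2 change was -0.57. In Dhh_KO ovaries the signals of 1246, 1302, 1372 and 1533 overlapped with those of controls 5 to 8. The log2 change there was -0.03 (95% interval -0.24 to 0.19, adjusted p = 0.951 by limma). On this probe set, a fall in Dhh_KO beyond -0.24 lay outside the interval. The 3′/5′ ratio of Gapdh, a measure of RNA quality, was 2.08 to 2.79 in Dhh_KO against 1.89 to 2.01 in controls 5 to 8, and its part was not tested. The controls of the sets also differed for Acvr1 without overlap (948 to 1102 on controls 1 to 4, 1227 to 1499 on controls 5 to 8). With each array of the fit left out in turn, the Acvr1 change ran from -0.998 to -0.823 in dKO and from -0.85 to -0.73 in Ihh_KO. The rule had already seen Acvr1 lower on these arrays, so the ranges only describe its values.

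**Figure D1:**
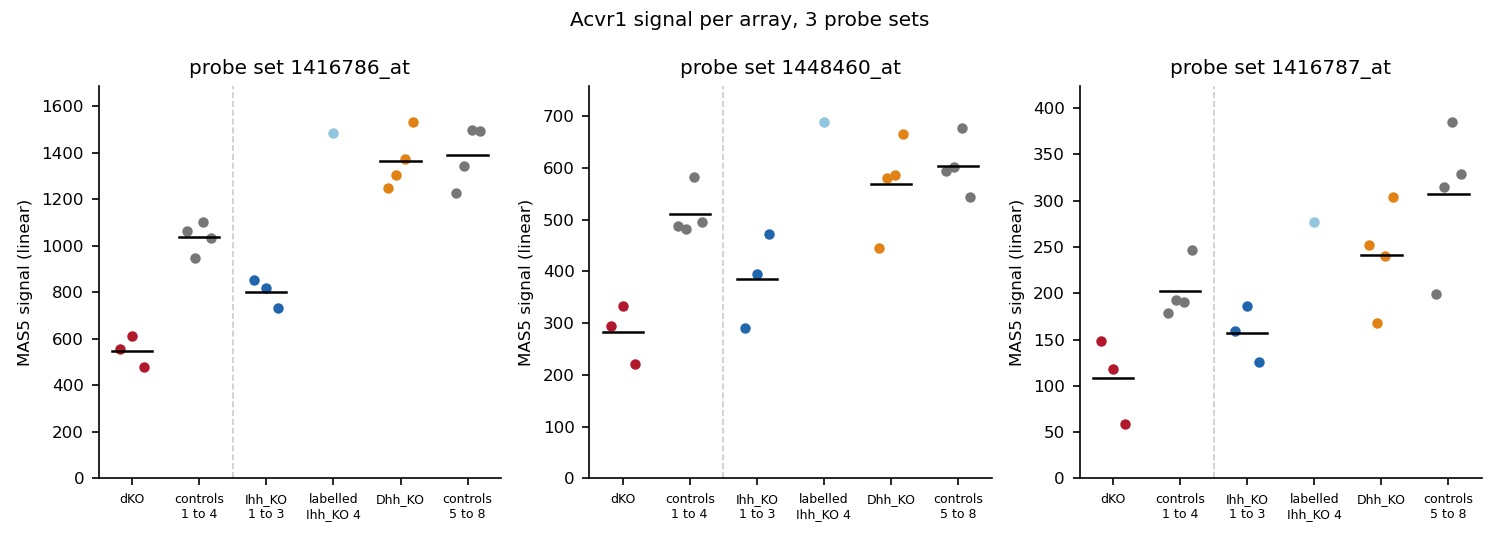
Acvr1 signal (MAS5, linear axis from 0) on each array for its 3 probe sets, with bars at group means and a dashed line between the hybridization sets. Points of dKO lie below controls 1 to 4 and points of Ihh_KO 1 to 3 lie below controls 5 to 8 on all 3 probe sets, while Dhh_KO overlaps controls 5 to 8.

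The other 2 Acvr1 probe sets read the same way in dKO and Ihh_KO. Probe set 1448460_at gave 294, 333 and 222 in dKO ovaries against 487, 482, 583 and 496 in controls 1 to 4, and 291, 396 and 472 in Ihh_KO ovaries against 595, 603, 677 and 544 in controls 5 to 8. Probe set 1416787_at gave 149, 118 and 59.0 in dKO against 179, 193, 190 and 246, and 159, 186 and 126 in Ihh_KO against 199, 315, 385 and 329. On these 2 probe sets the mutant and control signals also did not overlap in either comparison, and in Dhh_KO they overlapped on all 3. With probe sets tested one by one, the Dhh_KO log2 change was -0.10 (SE 0.16) on 1448460_at and -0.33 (SE 0.26) on 1416787_at. A fall in Dhh_KO is thus less closely bounded on 1416787_at, the Acvr1 probe set with the lowest signal. Among the 10 members, Acvr1 was the 1 whose dKO and control arrays did not overlap on its tested probe set, and the same held for Ihh_KO. The rule had already seen Acvr1 lower in both groups, so its lack of overlap there only describes its values. Of all genes tested, 6.07% were lower without overlap and 7.08% higher without overlap in dKO, and 7.62% lower and 5.1% higher in Ihh_KO. No probe set of the other 9 members that passed the filter was free of overlap in any comparison. None of the 10 members was free of overlap in Dhh_KO, where 3.27% of genes were lower and 2.19% higher without overlap.

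Markers of other cells moved with the group in dKO. The summed signal of 7 theca and steroidogenic markers was 23022 to 33105 in dKO ovaries against 44304 to 58520 in controls 1 to 4, with 4 of the 7 called lower (adjusted p under 0.05). The sum of 7 smooth muscle markers was 5555 to 12275 in dKO against 14202 to 18769, with 3 called lower. In Ihh_KO ovaries, where Acvr1 was also low, the theca sum was 45801 to 53139 against 39160 to 43833 in controls 5 to 8, with 0 of 7 called, and the smooth muscle sum was 9420 to 11659 against 10950 to 14895, with 0 of 7 called. Oviduct markers summed to 6590 and 10947 on dKO 1 and dKO 3 and to 428 on dKO 2, where Acvr1 read 612, below every control, while controls 1 to 4 summed to 172 to 822. Of the other lists, dKO had 0 of 7 granulosa, 0 of 9 oocyte and 0 of 3 corpus luteum markers called, 3 of 8 endothelial, 1 of 5 stroma and 1 of 5 macrophage markers called lower, and 2 of 7 surface epithelium, 2 of 3 oviduct and 2 of 3 mast cell markers called higher. No marker of any list was called in Ihh_KO or Dhh_KO. Of all genes, 3.13% were called in dKO, 0.388% in Ihh_KO and 0.00808% in Dhh_KO, so the lack of calls in Ihh_KO and Dhh_KO says little about these cells. Corpus luteum markers summed to 9375 to 16520 in Ihh_KO against 674 to 10629 in controls 5 to 8. The part of these cells in the Acvr1 values was not tested, and in whole ovaries fewer cells of a type and less RNA per cell cannot be told apart.

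The genes with the pattern most like Acvr1 over the 18 arrays, after the mean of each set's controls was taken off, were Hhip (r = 0.952), Aldh1b1 (0.934), Rftn2 (0.927), Lama2 (0.912) and Atp2b3 (0.888), out of the 12381 genes. These correlations describe points that share group and set. Hhip encodes a membrane protein that binds hedgehog ligands and is itself a target of hedgehog signalling. Its signal was 11.1 to 16.2 in dKO, 9.43 to 49.9 in Ihh_KO and 178 to 265 in Dhh_KO, against 123 to 284 in controls 1 to 4 and 192 to 281 in controls 5 to 8. The array labelled Ihh_KO 4 read 105 for Hhip.

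**Figure D2:**
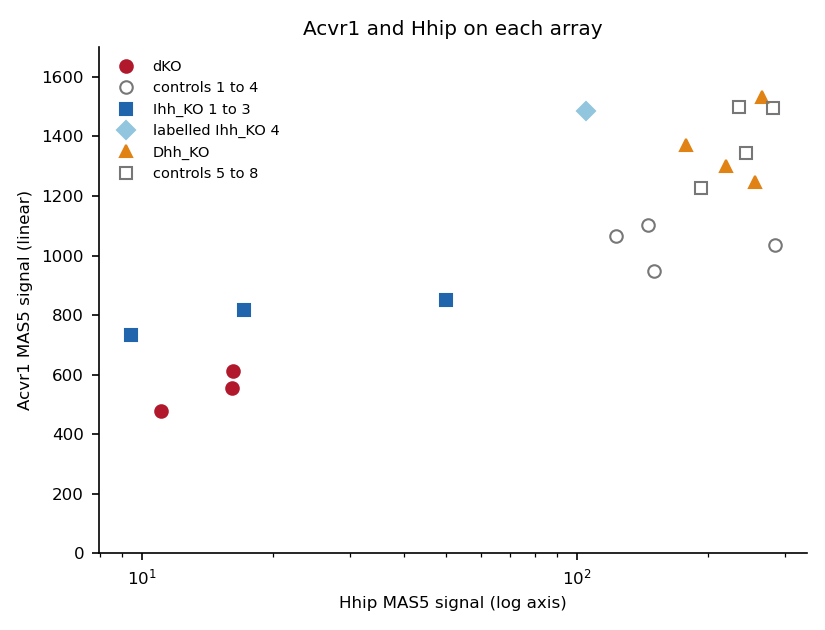
Acvr1 signal (vertical, linear) against Hhip signal (horizontal, log axis) on each array, by group. The dKO and Ihh_KO 1 to 3 arrays lie at low values of both genes, and Dhh_KO lies among controls 5 to 8.

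The other receptors did not pass the test in any mutant in the fit without blocks. Bmpr1b passed in dKO when arrays were blocked by replicate number. Bmpr2, the type II receptor for BMPs, gave 8707, 7334 and 7501 in dKO against 7054, 6507, 6765 and 8079 in controls 1 to 4. The log2 change was 0.14 (SE 0.13, adjusted p = 0.638 by limma), and the groups overlapped. Its log2 change was 0.10 in Ihh_KO (6836 to 8516) and 0.14 in Dhh_KO (6309 to 9228), against 6368 to 8496 in controls 5 to 8. Bmpr1a, the type I receptor also called ALK3, gave 3743, 3989 and 3693 against 3432, 3508, 3755 and 3719. Its log2 changes of 0.08 in dKO, -0.03 in Ihh_KO and 0.01 in Dhh_KO had 95% intervals within -0.18 and 0.23, the narrowest of the 10 members.

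Bmpr1b, the type I receptor also called ALK6, is expressed in granulosa cells and oocytes. It read 4282, 3653 and 3305 in dKO and 3422, 2118, 1984 and 3564 in controls 1 to 4, the log2 change being 0.48 (95% interval -0.04 to 0.99, adjusted p = 0.359 by limma). Controls 1 and 4 read well above controls 2 and 3, and the lowest dKO array lay between them. In the other set, control 8 (3364) was again the highest and controls 6 and 7 (1839 and 1965) the lowest. In Ihh_KO it read 2990, 2376 and 2432 (log2 change 0.15) and in Dhh_KO 3451, 2304, 1882 and 3184 (log2 change 0.17), against 2446, 1839, 1965 and 3364.

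The 3 ligands did not pass the test either. Bmp4, a ligand of theca cells, gave 145, 147 and 221 in Ihh_KO and 196, 167, 170 and 140 in Dhh_KO, against 183, 308, 209 and 299 in controls 5 to 8. The log2 changes of -0.52 (adjusted p = 0.270 by limma) and -0.53 (adjusted p = 0.409) had 95% intervals below 0 but failed the correction over all genes, and some arrays of each group overlapped with the controls. In dKO it gave 334, 368 and 245 against 238, 363, 243 and 348 in controls 1 to 4, a log2 change of 0.09 (adjusted p = 0.897). The change in dKO minus that in Ihh_KO was 0.61 (adjusted p = 0.331), and minus that in Dhh_KO 0.61 (adjusted p = 0.336).

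Bmp2, a ligand close in sequence to Bmp4, had the widest intervals of the 10 members. It read 882, 732 and 288 in dKO against 300, 330, 570 and 645 in controls 1 to 4 (log2 change 0.38, 95% interval -0.52 to 1.28, adjusted p = 0.729 by limma). The 2 high dKO arrays stood above all 4 controls and the third below all of them. In Dhh_KO the 4 signals ran from 333 to 892 and in Ihh_KO the 3 from 358 to 650, against 283 to 657 in controls 5 to 8, with log2 changes of 0.42 (adjusted p = 0.758) and 0.07 (adjusted p = 0.959). Bmp7, a ligand that also signals through Acvr1, lay near the filter on many arrays, at 70.3 to 164 in dKO against 71.3 to 128 in controls 1 to 4, and 44.9 to 110 in Ihh_KO and 28.9 to 112 in Dhh_KO against 55.3 to 94.96 in controls 5 to 8. The log2 changes of Bmp7 were 0.10, 0.13 and 0.23 in dKO, Ihh_KO and Dhh_KO (adjusted p = 0.936, 0.905 and 0.871 by limma), with groups that overlapped throughout. The array labelled Ihh_KO 4 read 152 for Bmp7, above those controls.

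**Figure D3:**
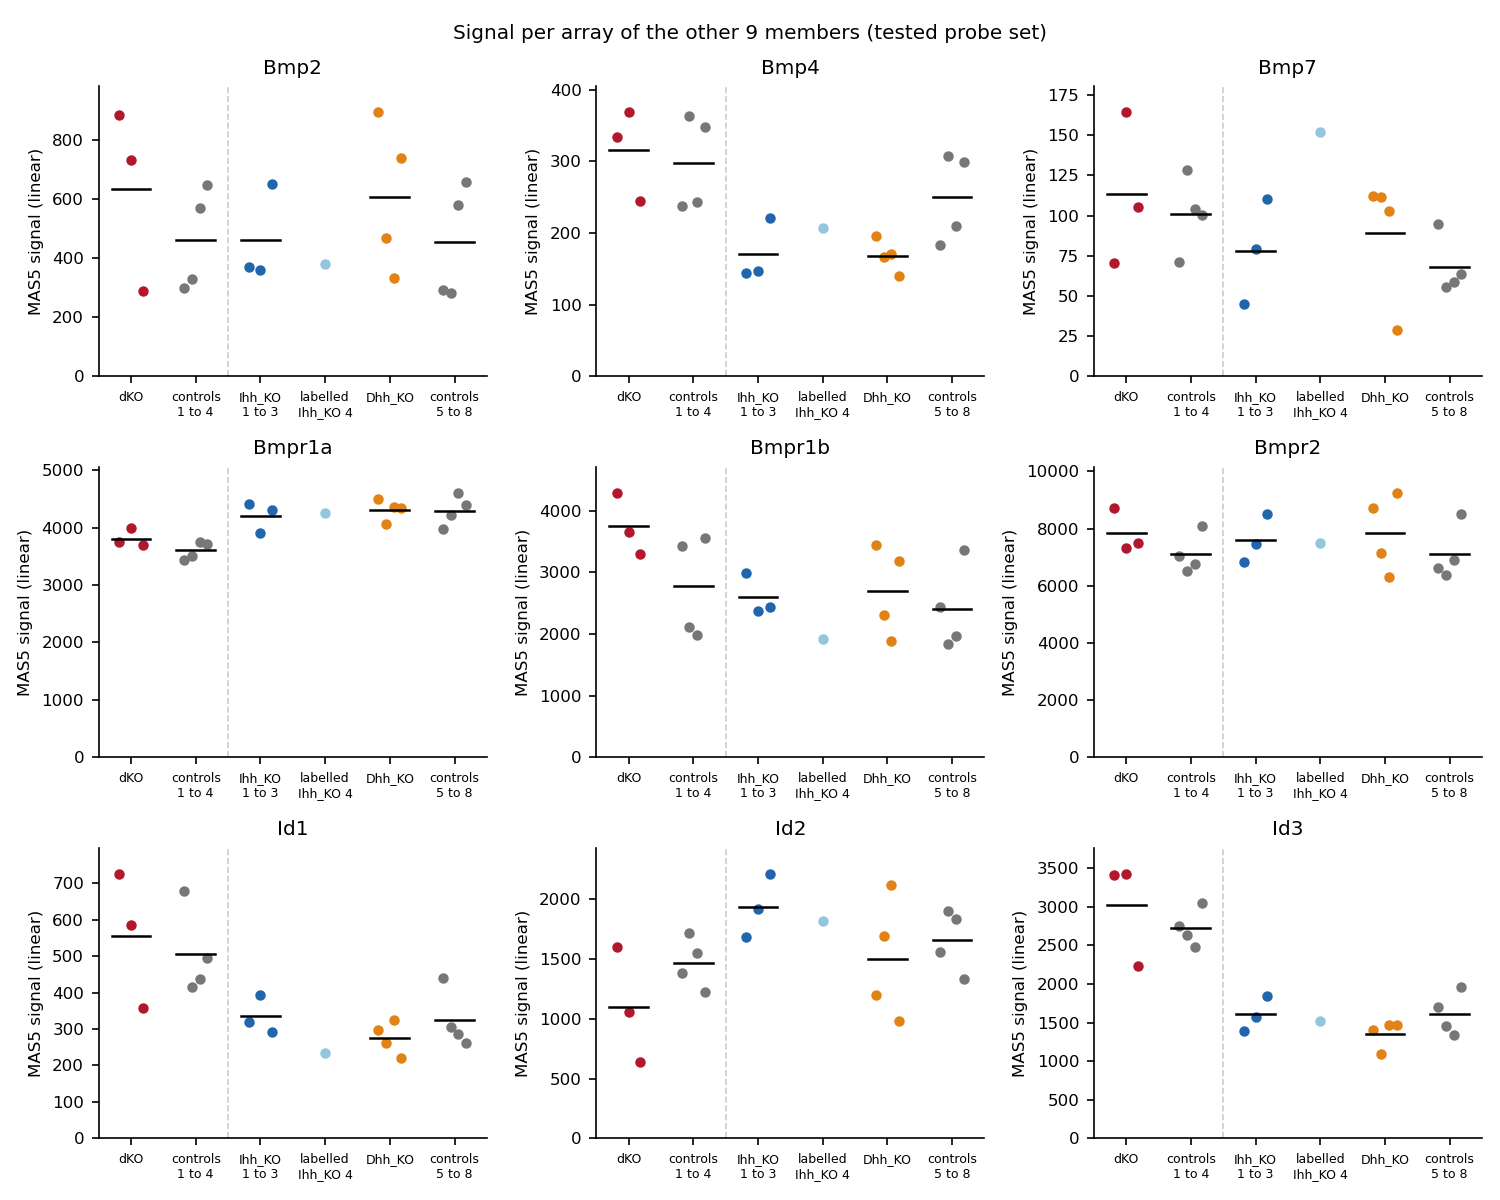
Signal (MAS5, linear axis from 0) of the other 9 members on each array, with bars at group means and a dashed line between hybridization sets. In every panel the points of each mutant group overlap with those of its controls.

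The Id genes, direct targets of BMP-activated SMADs, did not pass the test in any mutant. Id1 read 725, 585 and 358 in dKO against 680, 416, 437 and 495 in controls 1 to 4 (log2 change 0.10, adjusted p = 0.886 by limma), and 320, 395 and 292 in Ihh_KO against 440, 307, 287 and 263 in controls 5 to 8 (log2 change 0.07, adjusted p = 0.919). Id3 read 3416, 3420 and 2228 in dKO against 2757, 2636, 2478 and 3053, a log2 change of 0.12 (95% interval -0.22 to 0.47). In Ihh_KO it read 1396, 1570 and 1850 against 1706, 1459, 1333 and 1962, a log2 change of 0.00 (95% interval -0.35 to 0.34). Dhh_KO gave log2 changes of -0.21 for Id1 and -0.24 for Id3, neither past the test.

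Id2 was the Id gene with the lowest dKO mean relative to its controls. It read 1601, 1059 and 637 in dKO against 1387, 1720, 1552 and 1224, and dKO 1 lay among the controls while dKO 2 and dKO 3 lay below them. The log2 change was -0.50 (95% interval -1.07 to 0.06, adjusted p = 0.370 by limma). In Ihh_KO it read 1689, 1919 and 2209 against 1557, 1906, 1837 and 1335, a log2 change of 0.23 (adjusted p = 0.707). The change in dKO minus that in Ihh_KO was -0.73 (adjusted p = 0.322 by limma). Single arrays moved these values: the change in dKO was -0.82 without dKO 1 and -0.16 without dKO 3, and the difference from Ihh_KO was -1.05 without dKO 1 and -0.39 without dKO 3, none of which passed the test. In Dhh_KO it ran from 983 to 2123, around the range of the controls, with a log2 change of -0.19.

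Id3 also differed between the control sets. Id3 was 2478 to 3053 on controls 1 to 4 and 1333 to 1962 on controls 5 to 8, without overlap, and Id1 was 416 to 680 on the first and 263 to 440 on the second, with overlap. The genes most like Id1 over the 18 arrays were Mia (r = 0.805), Txnrd2 (0.792), Zfp827 (0.789), Esyt1 (0.788) and Gucy1b1 (0.788), all lower than the values for Acvr1.

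Counted together in the fit without blocks, 0 of the 9 members other than Acvr1 passed in dKO, where 3.13% of all genes did. The counts were 0 of 9 in Ihh_KO, where 0.388% passed, and 0 of 9 in Dhh_KO, where 0.00808% passed. At an unadjusted p under 0.05 in 1 limma fit the counts were 0 of 9 in dKO, 1 of 9 in Ihh_KO and 1 of 9 in Dhh_KO. Of all genes, 16.3%, 16.0% and 10.3% were under that p. The 1 gene was Bmp4 both times, against the same controls 5 to 8. The median log2 change of the 10 members was 0.10 in dKO (0.02 over all genes), 0.07 in Ihh_KO (-0.03 over all genes) and -0.01 in Dhh_KO (-0.03 over all genes). None of the 9 passed a test of the difference between mutant groups, where 0.275% of genes did for dKO minus Ihh_KO, 0.775% for dKO minus Dhh_KO and 0.21% for Ihh_KO minus Dhh_KO. Those shares rest on 34, 96 and 26 genes, and leaving out 1 array moved these counts over 1 to 300, 35 to 311 and 6 to 133. Scaling each array to its median signal instead moved the median of all genes in Ihh_KO to 0.17 and the Acvr1 change to -0.59. Such scaling shifts all genes of an array alike, so the Acvr1 change relative to the median (-0.76) could not differ between the scalings.

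**Figure D4:**
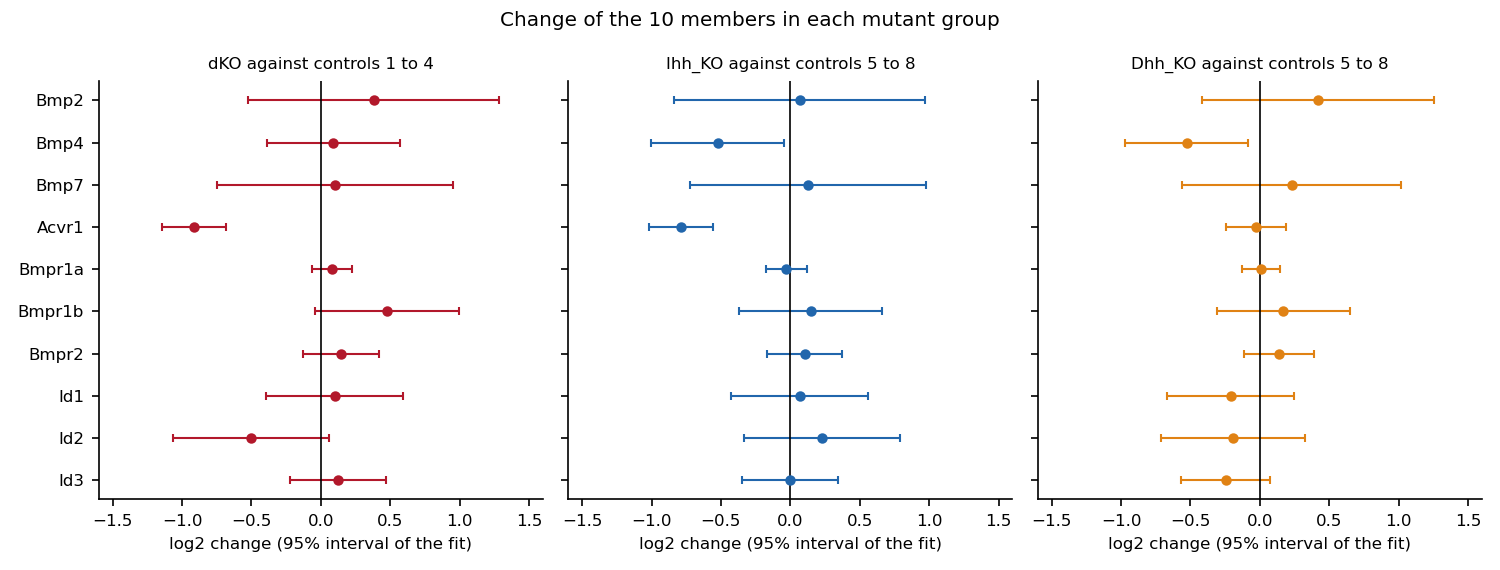
Log2 change of the 10 members in each mutant group against the controls of its own set, with 95% intervals of the fit. Acvr1 lies at -0.92 in dKO, -0.79 in Ihh_KO and -0.03 in Dhh_KO, and the other genes lie between -0.53 and 0.48. The Acvr1 intervals in dKO and Ihh_KO come from values the rule had already seen and are not a test.

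Members varied together in part across the 18 arrays after the mean of each set's controls was taken off. Differences between mutants and controls stay in these values. Bmpr2 and Bmp2 had r = 0.769 and Bmpr2 and Bmpr1b r = 0.755, while Acvr1 had r between -0.32 and 0.14 with the 9 others. These are descriptions over arrays that share groups and amplification.

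Beyond the 10 members, 39 of 59 further BMP pathway genes could be tested. In dKO ovaries 1 of the 39 rose, against 1.53% of all genes, and 0 fell. That gene was Bmp6, a ligand of granulosa cells and oocytes that signals through Acvr1. Its signal was 1212, 1328 and 1432 in dKO against 775, 557, 440 and 865 in controls 1 to 4, with every dKO array above every control. The log2 change was 1.04 (SE 0.20, adjusted p = 0.00752 by limma). When the fit used only the 7 arrays compared, the adjusted p was 0.0781. The part in the Bmp6 value of the marker lists that differed in dKO was not tested. In Ihh_KO it read 702, 653 and 680, and in Dhh_KO 678, 523, 541 and 827, against 641, 730, 562 and 799 in controls 5 to 8.

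Of the other ligands, Gdf10 gave 99.4, 52.8 and 76.9 in Ihh_KO against 167, 191, 187 and 238 in controls 5 to 8, a log2 change of -1.31 (adjusted p = 0.0666 by limma). In dKO it read 197, 201 and 157 against 103, 236, 247 and 314. Gdf10 is a ligand of the same superfamily. Among the receptors, Acvrl1 (ALK1), an endothelial type I receptor, read 164, 166 and 119 in dKO against 295, 297, 163 and 193 (log2 change -0.61, adjusted p = 0.143), and 3 of 8 endothelial markers were called lower there.

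Among secreted antagonists, Chrdl1, which binds BMPs outside the cell, read 686, 1007 and 945 in dKO against 365, 158, 119 and 679 in controls 1 to 4. The log2 change of 1.70 missed the threshold (adjusted p = 0.102 by limma), and control 4 lay just below the lowest dKO array. With the matched controls as a random block the adjusted p was 0.0443, and without control 4 it was 0.0220, so the call depends on these choices. Of the inhibitory SMADs, Smad6 read 200, 216 and 203 in dKO against 79.0, 87.5, 90.1 and 168, a log2 change of 0.98 (adjusted p = 0.142). Atoh8, a BMP target, read 622, 639 and 589 in dKO against 281, 260, 309 and 538, a log2 change of 0.88 (adjusted p = 0.149). It passed with the replicate block (adjusted p = 0.00302 by limma), with all 8 controls (0.0302) and without control 4 (0.0478). The Atoh8 call thus also depends on these choices. For all 3 of Chrdl1, Smad6 and Atoh8 every dKO array was above every control, and control 4 was the highest control. In all, 6 of the 39 pathway genes had every dKO array above every control (Bmp6, Rgmb and Twsg1 besides these 3) and 0 had every one below, where 7.08% and 6.07% of all genes did. Without overlap in Ihh_KO, 2 of the 39 were higher and 4 lower, where 5.1% and 7.62% of all genes were. The same counts in Dhh_KO were 0 higher and 4 lower (Bambi, Nbl1, Twsg1 and Smad7), where 2.19% and 3.27% of all genes were.

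In Ihh_KO, Skil, a repressor of SMAD signalling, read 3453, 3256 and 3525 against 1920, 2696, 2006 and 2461 (log2 change 0.60, adjusted p = 0.0838 by limma). Smad1, a SMAD that BMP receptors phosphorylate, had a log2 change of 0.45 (adjusted p = 0.134). Of the remaining genes with the smallest p of their role, dKO had Rgmb (a co-receptor, 0.41), Fstl1 (a secreted modulator, -0.44), Ski (a SMAD repressor, 0.25) and Hey1 (a target, 0.44), as log2 changes with adjusted p of 0.117 to 0.381 by limma. Ihh_KO had Gdf9 (an oocyte ligand, 0.16), Rgma (a co-receptor, -0.59), Bambi (a decoy receptor, -0.35), Bmper (-0.84) and Nbl1 (-0.21), both secreted modulators, and the targets Heyl (-0.63) and Hey1 (-0.26), with adjusted p of 0.200 to 0.822. In Dhh_KO the nearest were Nbl1 (-0.31) and Smad7 (-0.45), and Twsg1, a secreted modulator, had -0.20, with adjusted p of 0.432 to 0.488. In Ihh_KO and in Dhh_KO 0 of the 39 passed. The list's median log2 change was 0.09 in dKO, 0.00 in Ihh_KO and -0.07 in Dhh_KO, against 0.02, -0.03 and -0.03 over all genes.

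**Figure D5:**
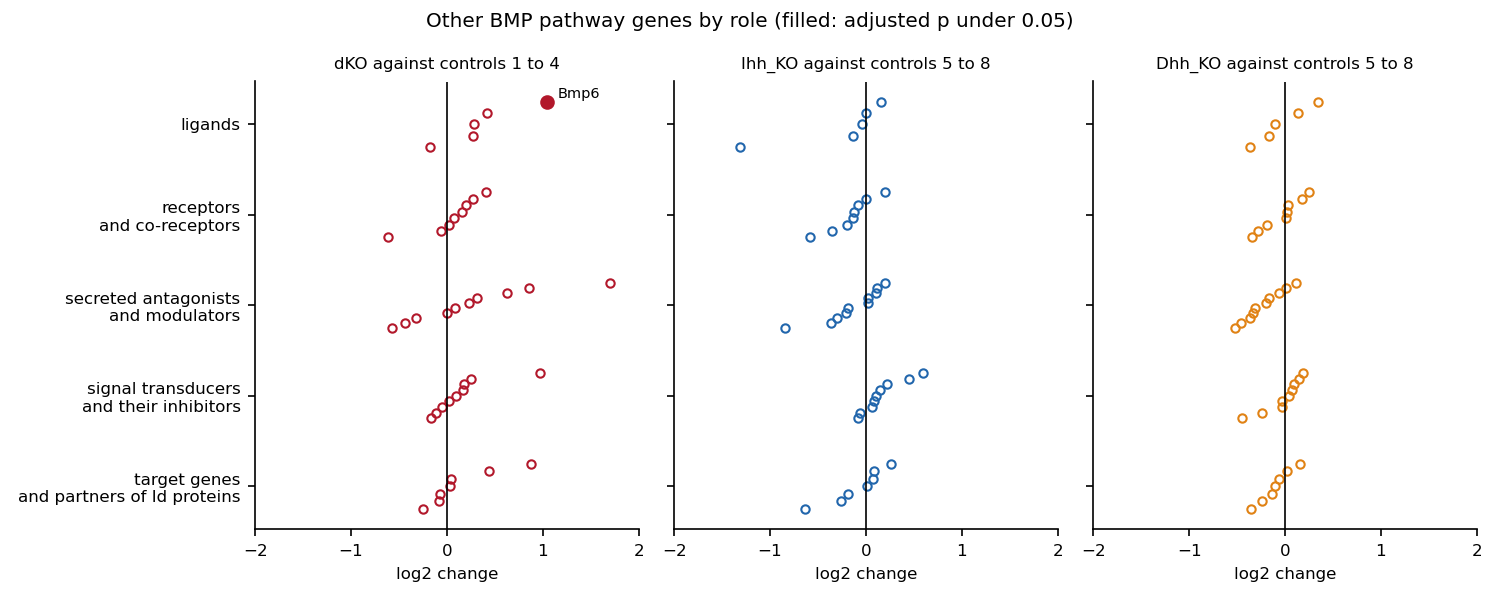
Log2 change of the 39 other BMP pathway genes by role in each mutant group, with filled points for adjusted p under 0.05. Bmp6 in dKO is the filled point.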

How the data were processed

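The deposited table holds MAS5 signals, intensity values on a linear scale, for 45101 probe sets on 19 arrays. The authors scaled every array to a trimmed mean (2% at each end) of 500, as the deposited values show; MAS5 is named per the submitters' processing notes, and no version is given in the sources used here. Probe sets annotated to 1 gene were kept (34945), 64 Affymetrix controls left out, and log2(signal + 7.02) taken, the addition being the 10th percentile of all signals, so changes of low genes are understated. Probe sets under the 40th percentile (signal 69.3) were dropped, and the brightest probe set stood for each gene. One limma 3.58.1 fit (R 4.3.3, lmFit and eBayes with an intensity trend) covered 18 arrays and 12381 genes, two-sided, with Benjamini-Hochberg adjusted p under 0.05 as the threshold. The array labelled Ihh_KO 4 was left out. Alternatives were other scalings, pseudocounts, filters, probe-set rules, control sets, blocks, moderation and leaving out each array. The fit was checked on simulated data. Python 3.11.15 with pandas 2.3.3, numpy 2.4.6 and matplotlib 3.10.9 drew the figures. The number of arrays limits precision. Members and lists were chosen with earlier results of these data known. Named genes were all members, pathway genes past the threshold, otherwise up to 2 per role with the smallest p (some of these are given only in the plot), and the 5 genes most like Acvr1 and Id1. Marker lists of granulosa, theca, oocyte, endothelial, smooth muscle, stroma, surface epithelium, oviduct, corpus luteum, macrophage and mast cells were summed. Deviations of same-numbered dKO arrays and controls correlated at 0.0744 to 0.274, and those of dKO and Dhh_KO at 0.133 to 0.204. By a limit of 0.1 in every pair, only dKO and Dhh_KO were treated as paired. With 3 pairs in each case, these values cannot settle whether the numbers pair arrays. A blocked fit of dKO and Dhh_KO was added after the data were seen.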

Additional observations from a re-analysis of the deposited data

Results flagged for a closer look

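In 8 of 100 groups of 4 arrays, 1 array stood far from the other 3 relative to the range of the group, where chance gives about 1 in 20. The array labelled Ihh_KO 4 stood high for Acvr1 (1416786_at) at 1487 among the 4 arrays with that label. Control 3 was high for Acvr1 (1448460_at) at 583. On Ihh_KO 3, Bmp2 was high at 650 and Bmpr1a (1451729_at) was low at 156. Bmp7 (1435479_at) was low on Dhh_KO 4 at 28.9, and Bmpr1a (1425494_s_at) was low on control 1 at 1526. Control 8 was low for Id2 at 465.7 (1422537_a_at) and at 20.9 (1453596_at). Bmp7 on the array labelled Ihh_KO 4, which entered no comparison, was 152, above all of controls 5 to 8. None of these was explained or tested further.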

How the results depend on the processing

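Acvr1 kept its direction in dKO and in Ihh_KO under every alternative run, on the same arrays where the rule had seen it lower. Its change nearest to 0 in Ihh_KO was -0.57, with the array labelled Ihh_KO 4. Genes called in dKO (388) numbered 243 with median centring, 620 with all 8 controls as 1 group, 79 with only the groups compared, and 174 to 543 with 1 array left out (174 without dKO 3). Genes called in Ihh_KO (48, of which 8 higher and 40 lower) numbered 25 with the filter at the 60th percentile, 89 with probe sets tested one by one, 83 with the mean of a gene's probe sets, 2 with the array labelled Ihh_KO 4, 151 with all 8 controls, 1 with only the groups compared, and 9 (without Ihh_KO 2) to 132 (without control 8) with 1 array left out. Median centring gave 25 higher and 14 lower, and quantile normalization 13 and 35. Genes called in Dhh_KO (1) numbered 0 with the stricter filter or with the array labelled Ihh_KO 4, 2 with the mean of probe sets, 5 with all 8 controls, and 1 to 6 (without control 8) with 1 array left out. Pathway genes called in dKO (1) numbered 4 with all 8 controls, 2 with matched controls as a random block, 0 with only the groups compared, and 1 to 3 (without control 4) with 1 array left out. In Ihh_KO (0) they numbered 1 with all 8 controls and 0 to 1 (without control 1) with 1 array left out. Genes called for dKO minus Ihh_KO, dKO minus Dhh_KO and Ihh_KO minus Dhh_KO (34, 96 and 26) numbered 600, 690 and 47 with matched controls as a random block, 2170, 3093 and 15 with all 8 controls, 1, 50 and 45 with quantile normalization 38, 27 and 14 with median centring, 17, 62 and 9 with the filter at the 60th percentile, 50, 81 and 17 with no filter, 54, 111 and 46 with probe sets one by one, and 49, 75 and 0 with the array labelled Ihh_KO 4. With 1 array left out they ran over 1 (without dKO 3 or Ihh_KO 2) to 300 (without control 4), 35 (without control 3) to 311 (without control 4) and 6 (without Dhh_KO 4 or Ihh_KO 2) to 133 (without Ihh_KO 1). With all 8 controls, 3 members passed the test between dKO and Ihh_KO and 3 between dKO and Dhh_KO, against 0 in each. That setting compares dKO directly with mutants of the other hybridization set, with no controls of the sets subtracted. Those counts therefore include any difference between the sets, which cannot be told apart from genotype there. Mutants against all 8 controls likewise mix controls of both sets.

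The replicate block in dKO gave 557 genes, 5 pathway genes and Bmpr1b at 0.59 (adjusted p = 0.0175 by limma). No blocked fit against controls was run for Ihh_KO and Dhh_KO, whose controls 5 to 8 carry other numbers in the labels. A replicate block of the same-numbered dKO and Dhh_KO arrays, chosen after seeing the data, gave 89 genes for dKO minus Dhh_KO (96 without it) and 0 of the 9 members, as without it. Changes that were not called and turned sign were, in dKO, Bmp7 (-0.076 with the mean of probe sets, -0.10 with the block), Bmpr1a (-0.046) and Ski (-0.046) with all 8 controls. In Ihh_KO they were Bmp7 (-0.081 with the mean of probe sets, -0.14 with all 8 controls), Bmpr1a (0.17 with median centring, 0.010 with the mean of probe sets, 0.096 with all 8 controls), Id1 (-0.056 with the array labelled Ihh_KO 4, -0.25 with all 8 controls), Id2 (-0.010 with the mean of probe sets), Id3 (0.20 with median centring) and Gdf9 (-0.19 with all 8 controls). In Dhh_KO, all 8 controls turned Acvr1 (0.18), Bmp7 (-0.033) and Twsg1 (0.020), and quantile normalization turned Bmpr1a (-0.062). With 1 array left out, dKO ranged over -0.030 to 0.26 for Bmp4, -0.19 to 0.38 for Bmp7 and -0.12 to 0.38 for Id1. Ihh_KO ranged over -0.21 to 0.28 for Bmp2, -0.14 to 0.44 for Bmp7, -0.066 to 0.024 for Bmpr1a, -0.055 to 0.22 for Id1, -0.11 to 0.096 for Id3 and -0.095 to 0.41 for Gdf9, and Dhh_KO over -0.086 to 0.014 for Acvr1 and -0.029 to 0.040 for Bmpr1a. The cause was not tested. Signals of Bmp7 lie close to the filter, which limits its values.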
